A study of Mus musculus with 2 samples.

Results

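The ABC transporter family is read here in 2 long-read RNA libraries of the mouse adrenal gland. Members are the annotated genes whose symbol is Abca to Abcg followed by a number and, where present, a letter a or b. The annotation holds 50 such genes, all protein-coding. Reads fell on 34 of them, out of 16400 annotated mouse genes with reads. The libraries come from the adrenal glands of B6CASTF1/J females, the first-generation hybrid of the C57BL/6J and CAST/EiJ strains, aged 25 days. The labels number them biological replicates 1 and 2, each with technical replicate number 1. They form 1 group, with no treatment, no other tissue and no other age. The tissue descriptions name a different animal for each library, whereas the library descriptions name the same one. The 2 libraries may therefore be technical replicates, although the labels number them as biological ones. P-values set the difference between them against counting error alone, with no estimate of the spread between replicates. Each read is the sequence of a single cDNA molecule. Levels are therefore given as a gene's reads per 1000000 reads on annotated genes (CPM), with no division by length.

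ABC proteins use ATP to move substrates across membranes. A full transporter has a pair of membrane domains and a pair of ATP-binding domains, either in 1 chain or in paired half-transporters. Subfamilies A and G are known for lipid and sterol export, B and C for drug and conjugate efflux, and D for fatty acid entry into peroxisomes. Subfamilies E and F have no membrane domain and act in translation. Mouse has paired genes, Abcb1a and Abcb1b, for the multidrug transporter P-glycoprotein. Abcb1a is best known from the endothelium of the blood-brain barrier, and Abcb1b from steroid-producing tissue such as the adrenal cortex.

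Abcb1b carries most of the results, so its upstream sequence is shown first. The line gives the 250 bases before the gene's start at position 8798147 of chromosome 5, plus strand, from the RefSeq promoter table (GRCm38.p6). Capitals mark CCAAT, on either strand, and GGGCGG, the core of a GC box.
Abcb1b promoter: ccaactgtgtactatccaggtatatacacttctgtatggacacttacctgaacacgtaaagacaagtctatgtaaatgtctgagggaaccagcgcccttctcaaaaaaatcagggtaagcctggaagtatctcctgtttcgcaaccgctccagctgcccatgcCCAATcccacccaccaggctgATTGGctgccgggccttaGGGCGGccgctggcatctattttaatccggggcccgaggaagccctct
CCAAT began 87 bases before the start on the plus strand, and its reverse complement began 66 bases before it. GGGCGG began 48 bases before the start. At least 1 CCAAT occurred in 33.8% of the 32851 promoter windows of the table, and GGGCGG in 32.7%. The other letters searched on both strands were absent from this window. They were AAGGTCA, a site of the steroidogenic factor SF-1, its longer form CAAGGTCA, which contains it, TATAAA, TGACGTCA and TGAGTCA. These occurred in 4.08%, 1.33%, 12.4%, 1.55% and 4.46% of all windows. The table holds 45 windows of 38 family members. Of these windows, 13 held CCAAT and 20 held GGGCGG.

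A 58-base exon, the fifth of the main Abcb1b transcript, was the exon most often skipped. It is shown in capitals, with 30 bases of its neighbours in lower case, from the GENCODE transcript Abcb1b-201 (GRCm38). The second line gives the fifth exon of Abcb1a-201 in the same way, and the third gives the junction made when Abcb1b skips the exon, with exon 6 in capitals.
Abcb1b exon 5: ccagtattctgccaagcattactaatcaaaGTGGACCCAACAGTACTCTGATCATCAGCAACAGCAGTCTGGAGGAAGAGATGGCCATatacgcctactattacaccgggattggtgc
Abcb1a exon 5: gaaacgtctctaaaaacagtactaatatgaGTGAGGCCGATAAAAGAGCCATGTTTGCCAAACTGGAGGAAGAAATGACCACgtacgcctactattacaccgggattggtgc
Abcb1b exon 4 to exon 6: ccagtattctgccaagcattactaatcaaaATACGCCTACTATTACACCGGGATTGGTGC
The exon lies at chr5:8810558-8810615 and its Abcb1a counterpart, of 52 bases, at chr5:8683384-8683435, both on the plus strand. All 58 bases are coding. Of these exons, 55.7% of the aligned columns were identical, against 87.7% over the whole coding sequences. Both coding sequences have 1276 codons before the stop. Of exons 2 to 28 set side by side, 23 of 27 had the same length in both genes. The longest run of identical coding bases was 338, whereas Abcb1b-201 is 4306 bases long and Abcb1a-201 is 4997.

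The 2 libraries differed in depth and in some cell-type markers. Replicate 1 held 397176 reads on annotated genes and replicate 2 held 712032, so 1 read is 2.52 CPM and 1.40 CPM. Where a gene had 0 reads, its level may still be as high as 3 reads, or 7.55 CPM in replicate 1 and 4.21 CPM in replicate 2. Intervals and limits of this kind cover counting error only. All 6 adrenal cortex markers had reads, together 74546 and 67341 CPM, and 3 of them were called higher in replicate 1 and 1 (Hsd3b1) higher in replicate 2. The 3 X-zone markers summed to 7641 and 7995 CPM, and none was called. The 6 chromaffin-cell markers summed to 10899 and 11947 CPM, with Th called higher in replicate 1 and Chga and Chgb higher in replicate 2. The 10 endothelial markers summed to 705 and 754 CPM, with none called. All 10 liver markers had reads, 121 in replicate 1 and 1 in replicate 2, and the 5 tested were all called higher in replicate 1. The 6 kidney markers had no reads in either library. The other marker lists summed to 101 and 170 CPM for macrophages, 181 and 247 CPM for capsule and stroma, with none called, and 1823 and 1361 CPM for adipocytes, with Ucp1 called higher in replicate 1. Red blood cell markers summed to 3074 and 3682 CPM, with Hba-a1 and Hbb-bs called higher in replicate 2. Zona glomerulosa markers summed to 340 and 433 CPM, with Cyp11b2 called higher in replicate 2.

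Abcb1b was the most abundant member by a wide margin. The gene (chr5:8798147-8866315, plus strand) held 1694 reads in replicate 1 and 2477 in replicate 2, or 4265 CPM (95% Wilson interval 4067 to 4473) and 3479 CPM (3345 to 3618). Its mean of 3872 CPM ± 556 (SD, n = 2) placed it at rank 9 of all annotated genes, and it ranked 9 in replicate 1 and 14 in replicate 2. Abcf2, at 153 CPM ± 19.2 (SD, n = 2), came next in the family, at rank 1361. Abcb1b alone made up 80.2% (78.5 to 81.9) and 77.2% (75.7 to 78.6) of all family reads in the 2 libraries. As a share of reads on annotated genes, the whole family made up 0.532% (0.510 to 0.555) and 0.451% (0.436 to 0.467). Without Abcb1b, these shares were 0.105% and 0.103%, and their intervals overlapped. In bulk tissue, more cells of a type and more RNA per cell cannot be told apart.

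Abcb1b was also the 1 member called different between the libraries. Of 34 members with reads, 21 reached 10 reads over both libraries and were tested by the two-sided exact binomial test against the library totals. The Benjamini-Hochberg adjustment ran over all 9271 genes that reached 10 reads. Of all those genes, 2.15% were called at an adjusted p under 0.05, made up of 1.35% higher in replicate 1 and 0.798% higher in replicate 2. The log2 ratio of Abcb1b, replicate 2 over replicate 1, was -0.29 (exact 95% interval -0.38 to -0.20), with adjusted p = 4.99e-08 by the exact binomial test. It is the most deeply read member, and the intervals of the other 20 were wider. By unadjusted p, 2 members were under 0.05, Abcb1b and Abca1. By value, 11 tested members were higher in replicate 1 and 10 in replicate 2. Their median log2 ratio was -0.05, and that of all tested genes was 0.03. The liver, adipocyte, cortex and chromaffin markers called higher in replicate 1 are given above, and their part in the difference of Abcb1b was not tested.

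**Figure D1:**
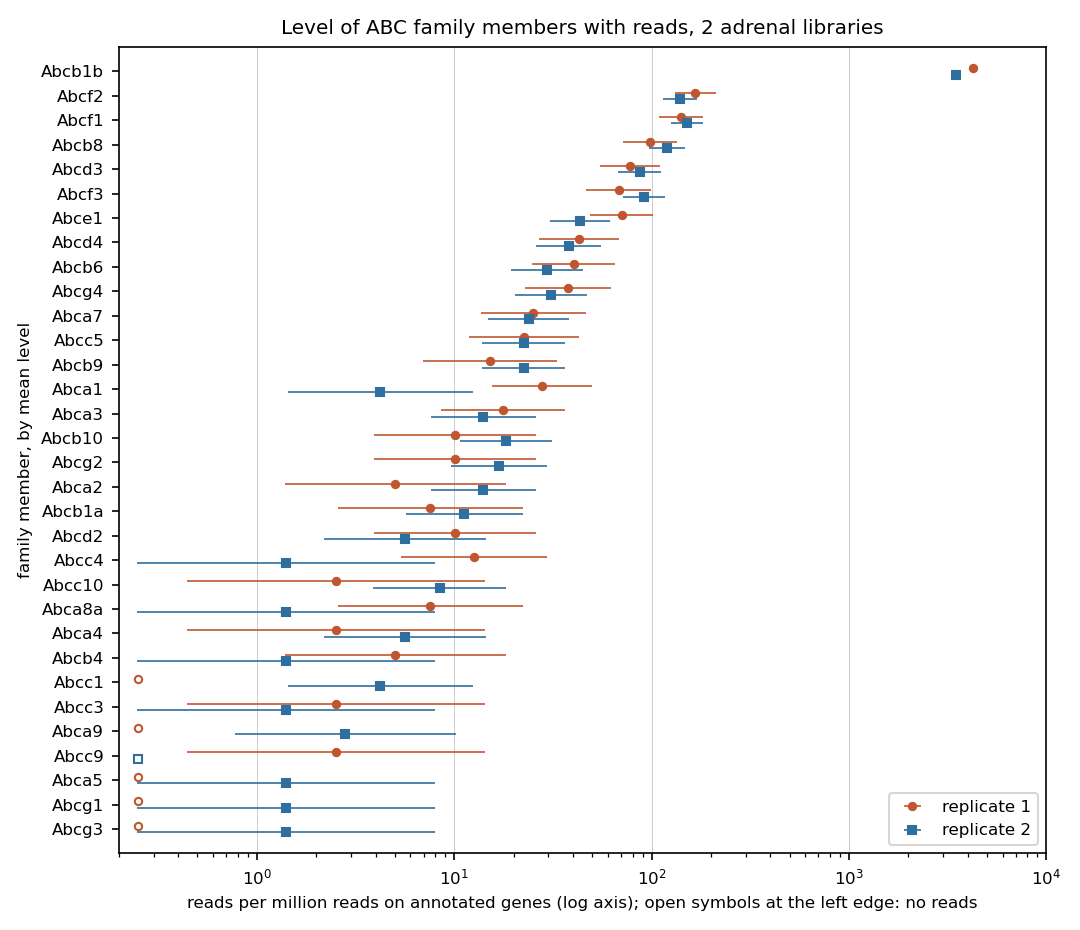
Level of 32 of the 34 members with reads in replicates 1 and 2, in CPM on a log axis; points are values, lines are 95% Wilson intervals and open symbols mark no reads. Abcb1b sits near 4265 and 3479 CPM, and no other member reaches 200 CPM.

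The paralog of Abcb1b was close to the limit of detection. Abcb1a (chr5:8660077-8748575, plus strand) had 3 reads in replicate 1 and 8 in replicate 2, or 7.55 and 11.2 CPM. Of the pair's reads, Abcb1b made up 99.8% (99.5 to 99.9) in replicate 1 and 99.7% (99.4 to 99.8) in replicate 2. The Abcb1b count includes a model that begins at 8685221, within the Abcb1a gene, and is joined to exon 7 of Abcb1b. That model held 3 reads in replicate 1 and 1 read in replicate 2, so a few reads cannot be given to 1 paralog alone. The ratio of Abcb1b to Abcb1a reads was 565 and 309.6 in the 2 libraries. The share did not differ between them beyond counting error (Fisher's exact test, two-sided, p = 0.542, adjusted p = 0.542 over 2 such tests). Of the 11 Abcb1a reads, 2 and 4 ran along the whole annotated transcript Abcb1a-201. The marker list of the endothelium, where Abcb1a is best known, was read in full, at 280 and 537 reads. The third gene of this cluster, Abcb4, which exports phosphatidylcholine into bile, had 2 reads and 1 read.

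Most Abcb1b reads followed a single transcript. Abcb1b-201, with 28 exons at chr5:8798186-8866315, held 1344 and 1992 reads. All annotated transcripts together held 79.4% (77.4 to 81.3) and 80.5% (78.9 to 82.0) of the gene's reads. These shares did not differ beyond counting error (Fisher's exact test, two-sided, p = 0.386, adjusted p = 0.542). The other annotated transcripts amounted to 1 read on Abcb1b-204 in each library and 1 on Abcb1b-208 in replicate 2. Over all annotated genes, the annotated share was 77.1% and 77.0%. The other 33 members together had 60.5% (55.8 to 65.1) and 63.8% (60.3 to 67.2).

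Models of Abcb1b that keep the first exons but stop early were more frequent than in most genes. In the deposited classes these are incomplete matches of the prefix type, and they held 136 and 212 reads, or 8.03% (6.83 to 9.42) and 8.56% (7.52 to 9.73) of the gene. Over all annotated genes the same class held 0.813% and 0.916% of reads. Among genes with at least 50 reads, Abcb1b had the most early-ending reads of any, 348 over both libraries. Of the other 4209 such genes, 1.73% had an equal or higher share, and none of the other 110 genes with at least 1000 reads did. Of 313 other genes whose most read transcript is over 4000 to 5000 bases long, 12 reached its share. The opposite class, models that begin late and keep the last exons, held 4.55% and 4.24% of Abcb1b reads, below the 6.61% and 6.63% over all genes. These figures describe 1 gene chosen after its values were seen, and carry no test.

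**Figure D2:**
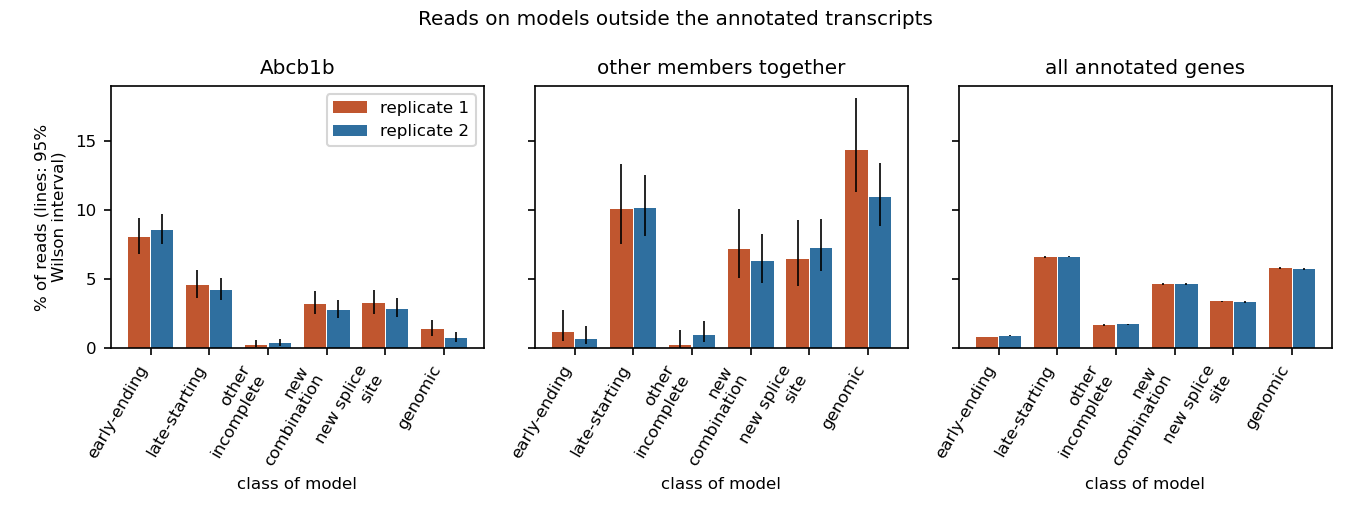
Share of reads on each class of model outside the annotated transcripts, for Abcb1b, for the other members together and for all annotated genes; bars are percentages in replicates 1 and 2 and lines are 95% Wilson intervals. Early-ending models hold 8.03% and 8.56% of Abcb1b reads but 0.813% and 0.916% over all genes.

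By the last exon held, the early-ending models clustered toward the start of the gene. Models whose last exon was exon 7 or earlier held 118 of the 136 early-ending reads in replicate 1. In replicate 2 they held 182 of the 212, so the shares were 86.8% and 85.8%. A model of 2 exons held 30 reads in replicate 1 and 94 in replicate 2, which is 1.77% (1.24 to 2.52) and 3.79% (3.11 to 4.62) of the gene. A model of 4 exons went the other way, with 64 and 45 reads, or 3.78% (2.97 to 4.80) and 1.82% (1.36 to 2.42). The intervals of the 2 libraries did not overlap for either model, and these 2 were singled out after their values were seen. For every other last exon of the early-ending models, the intervals overlapped. The same comparison was not made for other genes, so no share is available to set beside it. Models of 6 exons, which run on past exon 6 and end at position 8813651 inside exon 7, held 12 and 25 reads. The model of exons 1 to 5 held 10 and 15 reads. Another model of 5 exons, which lacks exon 5 and also ends at 8813651, held 2 and 3 reads. A 1-exon model of 1666 bases, from the gene's start into the second intron, held 18 and 14 reads. The deposited ends of the 2-exon and 4-exon models differed between libraries, at 8799812 and 8798806 for the first and at 8807176 and 8806170 for the second. In replicate 1 these ends lay past exon 2 and exon 4, inside the introns that follow. In replicate 2 they lay at the last base of those exons. The end stored with a model was therefore not taken as the end of every read in it.

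Exon use along Abcb1b was lowest at exon 5. The share of the gene's reads whose model holds the exon fell from 94.7% and 95.2% at exon 2 to 86.2% and 87.7% at exon 5. It was 90.2% and 90.1% at the last exon. Among reads whose models span exon 5, 43 in replicate 1 skipped it, or 2.86% (2.13 to 3.83), and 42 in replicate 2, or 1.90% (1.41 to 2.55). Exon 4 followed, with 15 and 18 skipping reads, or 0.959% and 0.796%. The counts for exons 4 and 5 include the 3 reads and 1 read of the model that begins within Abcb1a. From exon 9 to exon 25 no exon was skipped by more than 3 reads in either library. Near the end, exon 27 was skipped by 6 and 7 reads, and exon 26 by 0 and 7.

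**Figure D3:**
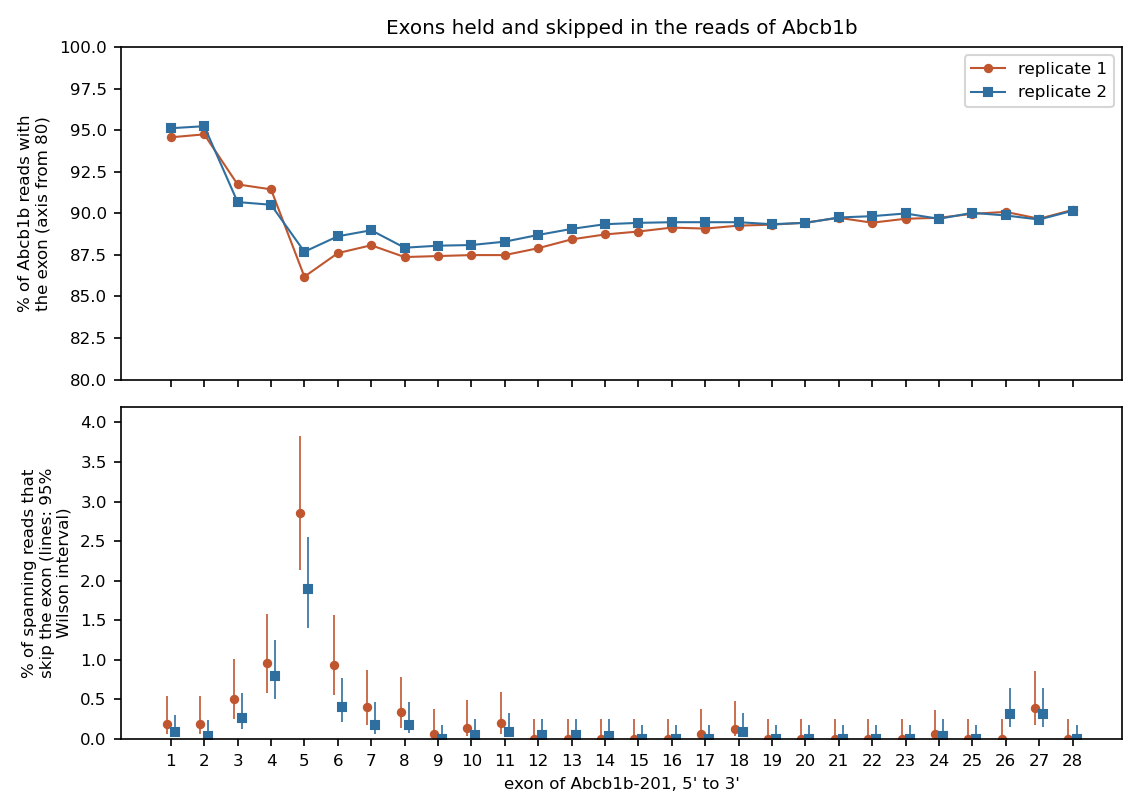
Upper panel, share of Abcb1b reads whose model holds each of the 28 exons of Abcb1b-201 (axis from 80%); lower panel, share of spanning reads that skip the exon, with 95% Wilson intervals, in replicates 1 and 2. Holding is lowest at exon 5, at 86.2% and 87.7%, and skipping is highest there, at 2.86% and 1.90%.

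In all, 172 distinct intron chains or 1-exon models were assigned to Abcb1b, 66 of them in both libraries. Taken as whole intron chains, 109 were new combinations or held a new splice site. Of these 109, 30 appeared in both libraries and 10 had at least 2 reads in each. The most read of these 10 lacks exon 5 alone, whose junction is printed above, with 19 and 15 reads. The same junction also occurs in an early-ending model of the prefix type, with 2 and 3 reads. The junction by itself is therefore not called new here, only the whole chain. The 58 missing bases shift the frame, and the reading frame from the annotated start then meets a stop after 106 codons, inside exon 6. A related model lacks exon 5 and has a longer exon 4, with 3 reads in each library. The model without exon 27 had 5 and 7 reads and lacks 49 codons in frame. The model without exon 6 had 2 and 2 reads and lacks 64 codons in frame. A model joining exon 2 to exon 9 had 3 and 3 reads and lacks 253 codons in frame. The remaining 5 of the 10 have all 28 exons and 1 changed splice site each.

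Small shifts of the donor site recurred in Abcb1b, chiefly by 4 bases downstream or 3 bases upstream of the annotated site. The shift 4 bases downstream was read at 8 exons, with 7 reads in replicate 1 and 11 in replicate 2. The shift 3 bases upstream was read at 4 exons, with 7 and 15 reads. For the upstream shift, the exons were 25, with 4 and 6 reads, 16, with 2 and 4, 12, with 1 and 4, and 23, with 0 and 1. The ends of 3 of them are shown, with the last 3 bases in capitals, since these are the bases that the shifted site moves into the intron.
Abcb1b end of exon 12: gaccccctggagggcGTG
Abcb1b end of exon 16: agtatgaaagaggctGTG
Abcb1b end of exon 25: cccatggctggatcaGTG
All 4 of these exons have GT at the start of their last 3 bases, the letters with which most introns begin. Among the 27 exon ends of Abcb1b-201 followed by an intron, these 4 were the only ones with GT there. The pattern was noticed in the data, and the match is a description. Outside Abcb1b, 119 newly spliced models were found in the other members, and 3 had at least 2 reads in each library. Of these, 2 belong to Abcf2: a model of 2890 bases with 4 and 4 reads, and a model of 2566 bases with 4 and 2 reads, against 2569 bases for Abcf2-201. The third is a 7-exon model of Abcc5 at chr16:20400761-20426353, with 2 reads in each library.

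The cytosolic ATPases came after Abcb1b. Abcf2 (chr5:24565345-24577467, minus strand) had 66 and 99 reads, or 166 and 139 CPM. Abcf1 (chr17:35956819-35969761, minus strand), which binds the initiation factor eIF2, had 56 and 108 reads, or 141 and 152 CPM. The ranges of these 2 overlapped, so their order is not resolved. Abcf3, which acts in the same subfamily, had 27 and 65 reads, or 68.0 and 91.3 CPM. Abce1 (chr8:79683462-79711740, minus strand), which splits ribosomes after termination, had 28 and 31 reads, or 70.5 and 43.5 CPM. Its log2 ratio was -0.70 (exact 95% interval -1.48 to 0.10), so it did not pass the test (adjusted p = 0.513, exact binomial test). Together these 4 genes held 446 CPM in replicate 1 and 426 CPM in replicate 2. Of the 8 translation partners listed, 7 had reads, all 7 were tested and none was called. The highest were Eif2s2, with 126 and 177 reads, Eif2s1, with 56 and 106, Hbs1l, with 43 and 74, and Gspt1, with 28 and 47. The eighth name, Gcn1, is not a symbol of this annotation.

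The mitochondrial half-transporters described next belong to subfamily B. Abcb8 (chr5:24393663-24410054, plus strand), a subunit of a mitochondrial potassium channel, had 39 and 85 reads, or 98.2 and 119 CPM, of which 23 and 69 lay on annotated transcripts. Abcb6, tied to porphyrin transport, had 16 and 21 reads, or 40.3 and 29.5 CPM. Abcb10, which takes part in heme synthesis, had 4 and 13 reads, or 10.1 and 18.3 CPM. None of these 3 passed the test between the libraries.

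The partners of these genes in iron-sulfur and heme synthesis were all read. All 12 genes in that list were tested and 2 were called higher in replicate 2. They were Iscu, the scaffold on which clusters form, with 439 and 1125 reads, and Alas1, the first enzyme of heme synthesis, with 378 and 870. Glrx5, with 294 and 604 reads, and Bola3, with 89 and 187, did not pass. The list's median log2 ratio was -0.03. In the same direction as the 2 called genes, 2 of 5 red blood cell markers were called higher in replicate 2, and their part was not tested.

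Among carriers of subfamily D, none was called different between the libraries. Abcd3 (chr3:121758774-121815302, minus strand), the most abundant of subfamily D, imports branched and dicarboxylic fatty acids and had 31 and 62 reads, or 78.1 and 87.1 CPM. Abcd2, a carrier of very long-chain fatty acids, had 4 reads in each library, too few to test. Abcd4, which works with vitamin B12 in lysosomes, had 17 and 27 reads, or 42.8 and 37.9 CPM. All 14 peroxisomal partners listed had reads and were tested, and none was called. The highest were Pex16, with 190 and 355 reads, Scp2, with 180 and 307, Acaa1a, with 107 and 219, and Pex19, with 70 and 145. Their median log2 ratio was -0.30.

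Among the 9 genes of drug and conjugate efflux, Abcb1b held most reads. The other 8 summed to 57.9 CPM (38.6 to 86.9) in replicate 1 and 66.0 CPM (49.6 to 87.8) in replicate 2. Abcc5, an exporter of cyclic nucleotides, had 9 and 16 reads, or 22.7 and 22.5 CPM. Abcg2, the breast cancer resistance protein, had 4 and 12 reads, or 10.1 and 16.9 CPM. Its annotated reads came from transcripts with 2 different first exons. Abcg2-202, starting at 58640564 of chromosome 6, had 2 and 5 reads, and a longer one starting at 58596671 had 1 and 2. Abcc4, an exporter of cAMP and prostaglandins, had 5 reads and 1 read, Abcc10 had 1 and 6, and Abcc1 had 0 and 3. Abcc3 had 1 read in each library. Of 12 listed regulators and conjugating enzymes, 10 had reads, 8 were tested and none was called. The highest were Gstp1, with 104 and 261 reads, Gstm1, with 101 and 212, Keap1, with 45 and 90, and Nfe2l2, with 30 and 68. Nr1i3 and Sult1e1 had no reads.

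Sterol and lipid exporters were sparse. Abca1 (chr4:53030787-53159895, minus strand), which loads cholesterol onto apolipoprotein A-I, had 11 reads in replicate 1 and 3 in replicate 2, or 27.7 and 4.21 CPM. Its log2 ratio of -2.56 (exact 95% interval -5.20 to -0.80) did not pass (adjusted p = 0.0602, exact binomial test). The 11 reads included 1 on the annotated transcript, and the 3 included none. Abcg1, which passes cholesterol to HDL, had 0 reads and 1 read. Abcg4, its relative known mainly from the nervous system, had 15 and 22 reads, or 37.8 and 30.9 CPM. Abca7 had 10 and 17 reads, or 25.2 and 23.9 CPM, Abca3, the surfactant lipid carrier of the lung, had 7 and 10, and Abca2 had 2 and 10. Of 16 listed partners and regulators, 15 had reads and 14 were tested. Of these, 2 were called higher in replicate 1. They were Scarb1, the HDL receptor of steroid-producing cells, with 1145 and 1637 reads, and Apoa1, with 23 and 0. Apoa1 is also a liver marker, and the 4 other tested liver markers moved the same way. Their part in that call was not tested. Apoe, with 714 and 1191 reads, Soat1, with 160 and 224, and Npc2, with 96 and 136, did not pass, and the list's median log2 ratio was -0.32.

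**Figure D4:**
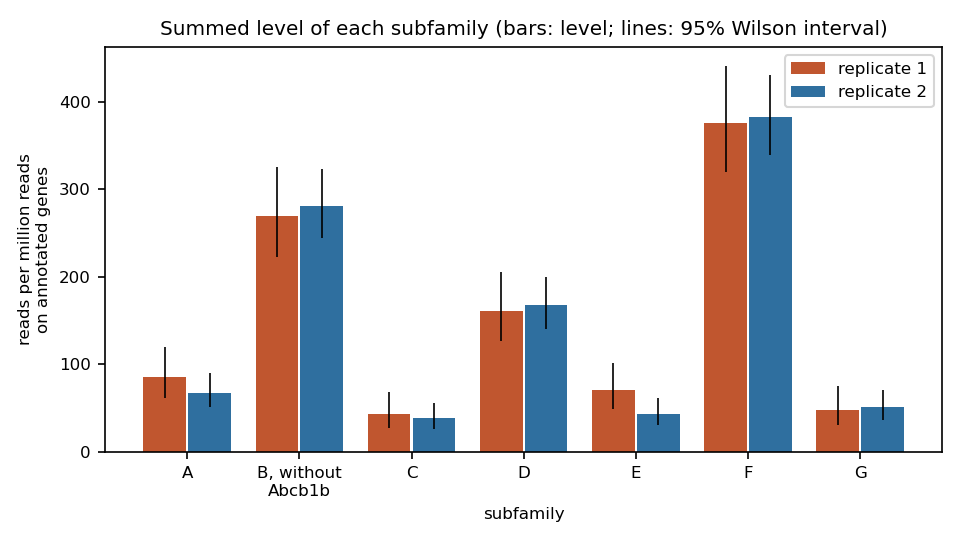
Summed level of subfamilies A to G in replicates 1 and 2, in CPM, with subfamily B shown without Abcb1b; lines are 95% Wilson intervals. Subfamily F leads at 375 and 382 CPM, and the 2 libraries' intervals overlap in every subfamily drawn.

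Without Abcb1b, subfamilies F, B and D had the highest summed levels. Subfamily F summed to 375 and 382 CPM over 3 genes. Subfamily B without Abcb1b summed to 269 and 281 CPM over 7 of 9 genes, with 45.8% and 55.5% of those reads on annotated transcripts. Subfamily D followed with 161 and 167 CPM over 4 genes, and A with 85.6 and 67.4 CPM over 8 of 16 genes. Abce1, at 70.5 and 43.5 CPM, stands alone in E. Subfamily G had 47.8 and 50.6 CPM over 4 of 6 genes, and C had 42.8 and 37.9 CPM over 6 of 10. The intervals of A, E, G and C all overlapped one another in both libraries, so the order of these subfamilies is not resolved. In replicate 1 the intervals of F and B also overlapped. Among single members, the values of Abcb8 did not overlap those of Abcf1, the next higher, but their Wilson intervals did. The values of Abcd3 and Abcf3 overlapped.

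The 16 genes with no reads were Abca6, Abca8b, Abca12, Abca13, Abca14, Abca15, Abca16, Abca17, Abcb5, Abcb11, Abcc2, Abcc6, Abcc8, Abcc12, Abcg5 and Abcg8. Of 9 family genes listed as liver-expressed, 6 had no reads and the other 3 (Abcb4, Abcc3 and Abca9) summed to 3 reads in replicate 1 and 4 in replicate 2. How many reads on these genes would go with the 121 liver-marker reads of replicate 1 was not tested. The sulfonylurea receptor gene Abcc8 had no reads and its relative Abcc9 had 1 read in replicate 1. Of their channel partners, Kcnj8 had 10 and 19 reads and Kcnj11 had 1 read and 0 reads. The remaining members with few reads were Abca4, with 1 and 4, Abca8a, with 3 and 1, Abca9, with 0 and 2, Abca5, with 0 and 1, and Abcg3, with 0 and 1. In all, 28 members had reads in both libraries, 1 in replicate 1 alone and 5 in replicate 2 alone. At the total of replicate 1, replicate 2 would be expected to show 29.5 members, against 29 seen in replicate 1.

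Transcript use was tested for members with at least 20 reads on annotated transcripts per library and reads on more than 1 annotated transcript. These were 5 members (Abcb1b, Abcf1, Abcb8, Abcd3 and Abce1), and none differed in transcript use by Fisher's exact test. Of all 1866 genes tested this way, 0.161% were called. By unadjusted p, 0 of the 5 were under 0.05. Abcf2, with 47 and 74 annotated reads, had a single annotated transcript with reads and was not tested. In each of the 5, the most read transcript held between 94.4% and 100% of annotated reads. Abcb9, a lysosomal peptide transporter, had 6 and 16 reads, of which 4 and 11 lay on Abcb9-201.

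The share of reads on annotated transcripts was low for several long members. Of 21 tested members, 6 had under 50% of their reads on annotated transcripts, which is 28.6% of them against 22.4% of all tested genes. Abca1, whose annotated transcript has 10262 bases, had 7.14% over both libraries. Abca7, of 6696 bases, had 14.8%, Abca3, of 6476 bases, had 29.4%, and Abcc5, of 5811 bases, had 24.0%. Each of these shares rests on only 14 to 27 reads. The 12 reads of Abca2 included none on an annotated transcript, and 9 of them lay on late-starting models. By contrast, Abcd3, of 3489 bases, had 88.2%. Over all genes with at least 50 reads, the median share fell from 94.2% for transcripts up to 1000 bases to 73.9% above 5000. Abcb1b, at 80.1%, stood above the median of 74.3% for the 314 genes of 4000 to 5000 bases, and 60.5% of those genes lay below it. Members share the libraries and the annotation with these genes, so the comparison is a description.

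**Figure D5:**
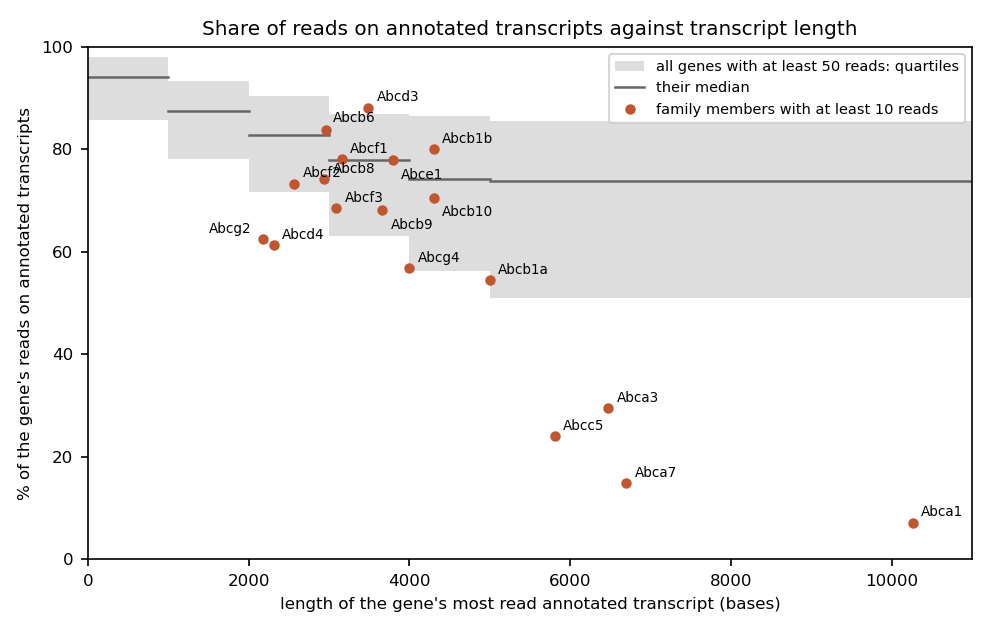
Share of a gene's reads on annotated transcripts, over both libraries, against the length of its most read annotated transcript in bases, for 18 members with at least 10 reads and an annotated read; grey bands and lines are quartiles and medians of all genes with at least 50 reads. Abcb1b lies at 80.1%, and the 4 members drawn above 5000 bases lie at 29.4% or lower.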

How the data were processed

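The adrenal libraries were sequenced as full-length cDNA on a long-read platform, per the labels' protocols. The deposited values are counts of whole reads per transcript model in 1 library, not normalized, made by the authors on mm10 with GENCODE M21 and sorted into TALON novelty classes, per the file headers and the accompanying text; the aligner and its version are not given in the sources used here. Read counts were summed per gene over all models and scaled to 1000000 reads on annotated genes. The libraries hold 426150 and 770041 reads, of which 8817 and 14315 lay on spike-ins, left out here.

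Members were matched by symbol. The family and all gene lists were chosen with earlier results of these data known. An exact binomial test, two-sided, set the libraries against each other for each gene that reached 10 reads in all. P-values were adjusted by Benjamini-Hochberg over those genes and called under 0.05. Log2 ratios added 0.5 reads to each count. Transcript use and the shares of Abcb1b were compared by Fisher's exact test. With 1 library per replicate number and 1 group, p-values set the difference between these libraries against counting error alone. Intervals are 95% Wilson intervals, except those of log2 ratios, which are exact. New models were matched between libraries by their introns.

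Values were named for Abcb1b, Abcb1a, the 20 highest members, any called member, the 3 highest of each subfamily, repeated new models and up to 4 highest genes of each list. The results of some members are not reported here. Genes singled out beyond this were chosen after their values were seen. TMM factors came from edgeR 4.0.16 and size factors from DESeq2 1.42.0, in R 4.3.3. The other steps used Python 3.11.15 with pandas 2.3.3, numpy 2.4.6, scipy 1.17.1, Biopython 1.88 and matplotlib 3.10.9. The gene test was checked on simulated counts that held counting error alone, with no added spread between libraries, so the check does not cover such spread. Promoter windows came from RefSeq and exon sequences from GENCODE transcripts.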

Additional observations from a re-analysis of the deposited data

Results flagged for a closer look

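Models outside the annotation were read on the strand opposite to some members, in data that the comparisons above do not use. A signal was taken up where it was over 3 reads in both libraries, the most that a count of 0 allows, which held for 4 of the 19 members with any such reads. Opposite to Abca1 there were 13 reads in replicate 1 and 19 in replicate 2, all on 1-exon models, against 11 and 3 reads on the gene itself. It was the 1 member with more opposite reads than its own in both libraries and over 3 in each. Opposite to Abcb1b there were 6 and 14 reads, against 1694 and 2477 on the gene. Opposite to Abcc4 there were 5 and 6 reads, against 5 and 1 on the gene. Opposite to Abcc5 there were 4 and 4 reads, against 9 and 16 on the gene. How strand was set for 1-exon models is not given in the sources used here.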

How the results depend on the processing

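The number of members called different between the libraries was 1 with annotated transcripts alone, spliced models alone, TMM, DESeq2 size factors, no filter and at least 20 reads. It was Abcb1b each time. Adding 1 read changes the log2 ratio but cannot change the calls, so it is no check on them. The log2 ratio of Abcb1b ranged from -0.34 to -0.27. No member was called in transcript use with a minimum of 10 or of 50 reads. The number of members with reads in both libraries was 28, and 16 when at least 5 reads in each were required. With 2 libraries, leaving out 1 replicate only returns the value of the other, so it is no further check. These values were 99.7% to 99.8% for the share of Abcb1b in the pair, 79.4% to 80.5% for its annotated share and 0.451% to 0.532% for the family. Of 24 named members, levels on annotated transcripts alone moved by over 1 SD for 10, lower for 8 and higher for 2. With spliced models alone, 3 were lower and 3 higher. TMM and DESeq2 factors shifted all log2 ratios by -0.05. The expected number of members in replicate 2 at the total of replicate 1 was added after seeing the data. No paired analysis was possible because there is 1 group. Members under 10 reads were too shallow to compare.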

Other observations

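Of 3 ABC genes with other names, 2 had reads. Tap2, a subunit of the peptide transporter of antigen presentation, had 40 and 82 reads, or 101 and 115 CPM, and its partner Tap1 had 12 and 25. Neither passed the exact binomial test between the libraries, and Cftr had no reads. The 6 listed peptide-loading partners were all tested and none was called. The highest were Pdia3, with 210 and 390 reads, Canx, with 110 and 180, B2m, with 81 and 201, and Tapbp, with 72 and 144.

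A gene annotated on the opposite strand over the start of Abcb1b, Gm5106 (chr5:8773577-8798523), had 1 read in each library.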
